A study of Bos taurus with 40 samples.

Results

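MEG3, MEG8 and H19 are imprinted long noncoding RNAs, and their 3 rows were read by symbol from count tables of 59051 rows each, one table per set of RNA libraries. All 3 names had a row in each of the 4 tables. The rows were chosen by name, without regard to their values, but with earlier results of these data known.

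Imprinted genes are transcribed mainly from the copy inherited from one parent, according to methylation laid down in the germ line. MEG3 and MEG8 lie in the imprinted domain between DLK1 and DIO3 and are transcribed from the maternal copy. MEG3 has been linked to p53 and to Polycomb complexes, and MEG8 hosts small nucleolar RNAs in its introns. H19 is transcribed from the maternal copy next to the growth factor gene IGF2, shares an imprinting control region with it, and is the precursor of a microRNA. In cattle, disturbed IGF2 and H19 imprinting is known from fetal overgrowth after embryo culture. Read counts do not tell parental copies apart.

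The study followed single bovine oocytes to embryo development and compared those that reached the blastocyst stage with those that stopped at cleavage. Granulosa cells, which line the follicle, came from individual follicles before the cumulus-oocyte complex was matured in vitro, and cumulus cells, which surround the oocyte, came with ooplasm biopsies after maturation. Each of these cell types had 4 libraries in the blastocyst group and 4 in the cleavage group. A further set held 4 ooplasm biopsies and 4 whole oocytes that share numbers, with no fate in the labels. The treatment label of every sample reads diploid and names no agent, and no breed or age is given. Granulosa and biopsy libraries carry the oocyte labels B20, B21, D24 and D27 in the blastocyst group and B14, B23, D10 and D29 in the cleavage group. Cumulus libraries are called here by the number in their column, 9 to 12 in the blastocyst group and 5 to 8 in the cleavage group. A biopsy is a sample of the cytoplasm of a single oocyte, and every library is a bulk sample.

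Library totals, in units of 1e6 counts, spanned 7.96 to 9.59 in the cumulus set and 9.88 to 17.7 in granulosa cells. Totals of fate biopsies spanned 16.8 to 22.6 and those of the matched set 13.4 to 23.8. Granulosa libraries of the blastocyst group had more rows with 5 counts or more, 26373 to 28629, against 18065 to 22039 in the cleavage group. H1FOO, the oocyte linker histone and the single row found among 14 oocyte markers, stood at 533 to 1548 CPM in biopsies and oocytes and at 0 to 0.109 CPM in cumulus cells, where CPM are counts per 1e6 counts of the library. It stood at 5.84 to 34.2 CPM in granulosa cells of the blastocyst group and 0.234 to 5.10 CPM in those of the cleavage group. No row was found under the symbols of the granulosa (9), cumulus (7), theca (3), stroma (4), immune (4), endothelium (3) or erythrocyte (3) markers, so the granulosa and cumulus labels could not be checked this way.

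The members were measured on few reads, except H19 in cumulus cells. MEG3 took 0 to 139 counts per library, MEG8 0 to 492 and H19 0 to 1480. A row named only by an Ensembl identifier, ENSBTAG00000054745, carried almost the same counts as H19, differing in 6 of 32 libraries and by at most 4 counts. That row is not treated as a second measurement, and whether the same reads were counted under both names was not tested. Levels of members are given as CPM scaled by TMM, a factor that evens out differences in composition between libraries. They are compared between libraries for 1 member at a time and not between members, because transcript lengths were not used.

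**Figure D1:**
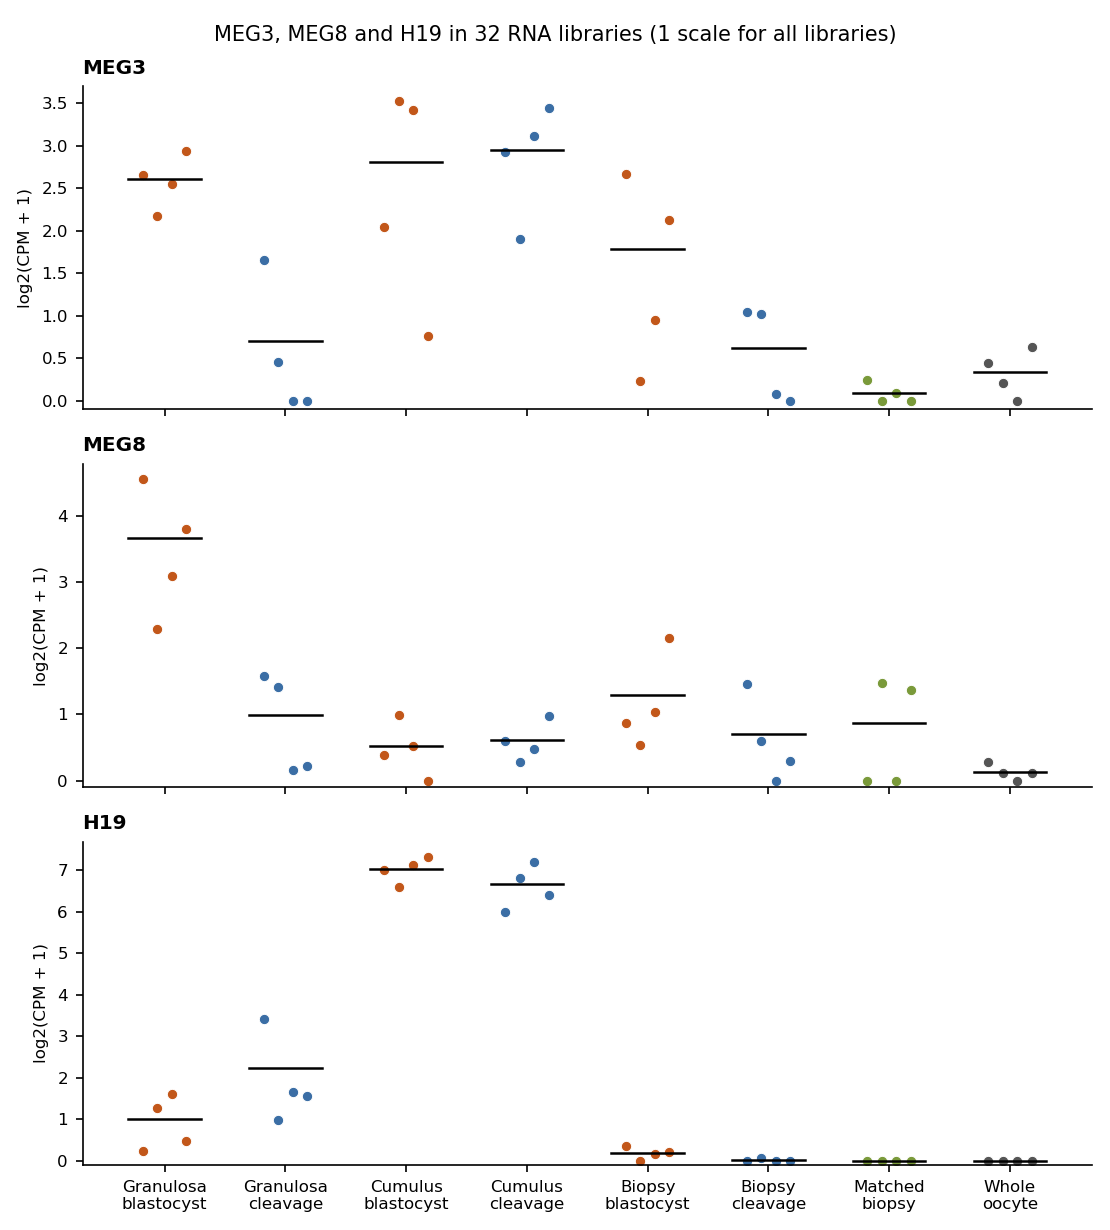
Level of MEG3, MEG8 and H19 in each of the 32 RNA libraries, as log2(CPM + 1) on a scale common to all libraries, with groups along the horizontal axis and a line at the log2 of the group's mean CPM plus 1. H19 is high in the 8 cumulus libraries alone, at 62.9 to 159 CPM, whereas MEG8 is highest in granulosa cells of the blastocyst group, at 3.90 to 22.6 CPM.

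In granulosa cells MEG8 was higher in the blastocyst group than in the cleavage group, and MEG3 showed the same separation of the groups without passing the test. MEG8 had 492, 95, 183 and 270 counts in blastocyst libraries B20, B21, D24 and D27, against 38, 27, 2 and 3 counts in cleavage libraries B14, B23, D10 and D29. On the TMM scale these were 32.5, 5.74, 11.2 and 18.6 CPM in the blastocyst group, against 2.50, 2.46, 0.151 and 0.211 CPM in the cleavage group. All 4 blastocyst libraries lay above all 4 cleavage libraries, with B20 highest and D10 and D29 near 0. The means were 16.99 ± 11.6 CPM in the blastocyst group and 1.33 ± 1.33 CPM in the cleavage group (SD, n = 4 each).

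The fitted log2 fold change of MEG8 was 3.67 (SE 0.998, edgeR quasi-likelihood adjusted p = 0.0264). In this comparison 21.3% of the 22934 rows tested were called higher and 0.349% lower. Among rows within 1 log2 unit of the mean CPM of MEG8, 27.7% were called higher, so its call was one of many at that level, and the shares were 30.0% called higher near the mean of MEG3 and 0.0465% called lower near that of H19. A complete separation of the groups was seen in 28.7% of all rows tested. Without B20 the fold change of MEG8 was 3.40 (adjusted p = 0.0567), without D27 it was 3.52 (adjusted p = 0.0641), and without both, a choice made after seeing the data, it was 2.74 (adjusted p = 0.236, edgeR). Without both, edgeR called 0 rows of the whole table, with 4602 at an unadjusted p under 0.05. B20 and D27 were also the granulosa libraries with the most detected rows, 28629 and 28473, and the highest H1FOO, 34.2 and 19.1 CPM. Their part in the MEG8 difference was not tested.

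MEG3, whose transcription starts upstream of MEG8 in the same domain, had 116, 86, 118 and 139 counts in blastocyst libraries B20, B21, D24 and D27, against 41, 6, 0 and 0 in cleavage libraries B14, B23, D10 and D29. These were 7.66, 5.20, 7.20 and 9.56 CPM in the blastocyst group, against 2.70, 0.546, 0 and 0 CPM in the cleavage group. Blastocyst libraries lay close together and above every cleavage library, while the cleavage group ran from no count to B14. For D10 and D29 a count of 0 allows up to 0.227 and 0.211 CPM. The means were 7.403 ± 1.79 CPM in the blastocyst group and 0.811 ± 1.28 CPM in the cleavage group (SD, n = 4 each). The log2 fold change of MEG3 was 3.17 (SE 1.31, edgeR adjusted p = 0.108). It was 5.30 without B14 (edgeR adjusted p = 0.0288) and 3.58 with the DESeq2 Wald test (adjusted p = 0.0142). Passing upward was common in both fits, with 4491 of 24995 rows without B14 and 11059 of 30913 under DESeq2. Each MEG3 pass was thus one of many.

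H19 went the other way in its means and did not pass. It had 4, 35, 50 and 8 counts in blastocyst libraries B20, B21, D24 and D27, against 184, 16, 37 and 35 counts in cleavage libraries B14, B23, D10 and D29. In CPM these were 0.264, 2.12, 3.05 and 0.550 in the blastocyst group, against 12.1, 1.46, 2.80 and 2.46 in the cleavage group. The groups overlapped, with B14 far above the other libraries. The means were 1.495 ± 1.32 CPM in the blastocyst group and 4.70 ± 4.96 CPM in the cleavage group (SD, n = 4 each), with a log2 fold change of -1.65 (SE 0.99, edgeR adjusted p = 0.228). Without B14 it was -0.60. The 2 blastocyst libraries highest for MEG8 and MEG3 among all 8, B20 and D27, were the lowest of all 8 for H19.

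**Figure D2:**
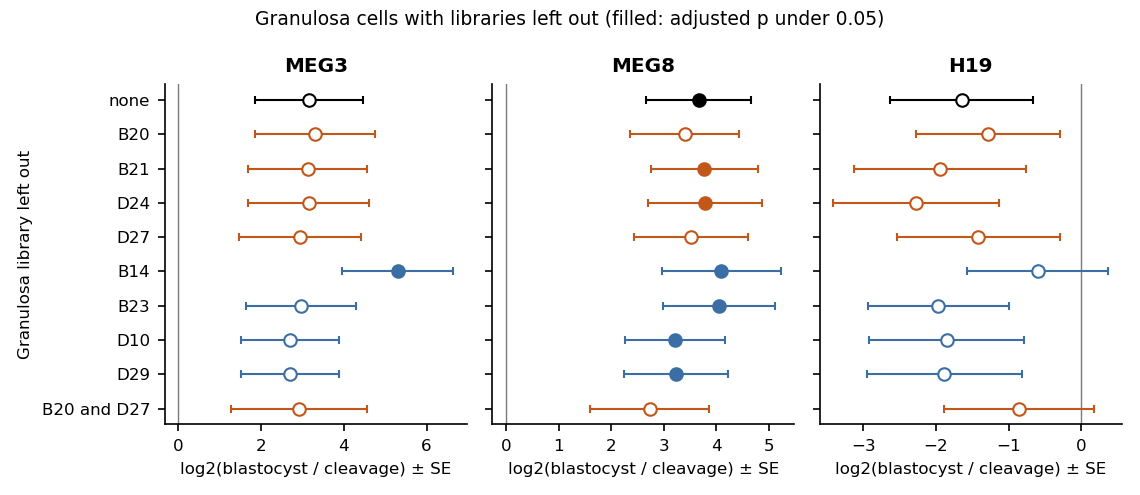
Log2 fold change between the blastocyst and cleavage groups in granulosa cells for each member, with its SE, in the fit of all 8 libraries (none) and with the named libraries left out. Filled points passed an adjusted p of 0.05: MEG8 passes with all libraries and not without B20 or D27, MEG3 passes without B14, and H19 passes in no fit shown.

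Letters B and D in the oocyte labels are not explained, so the fate difference in granulosa cells was also read within each letter. For MEG8 the D libraries averaged 14.87 ± 5.23 CPM in the blastocyst group and 0.181 ± 0.042 CPM in the cleavage group, and the B libraries 19.1 ± 18.9 and 2.48 ± 0.029 CPM in the same order (SD, n = 2 each). For MEG3 the B libraries averaged 6.43 ± 1.74 CPM in the blastocyst group and 1.62 ± 1.52 CPM in the cleavage group. D libraries of MEG3 averaged 8.38 ± 1.66 CPM in the blastocyst group and had no count in the cleavage group. Since all 4 blastocyst libraries lay above all 4 cleavage libraries for both RNAs, the same order within each letter had to follow. It is no separate check on the letters. With the letter as a covariate MEG8 had a log2 fold change of 4.43 (edgeR adjusted p = 0.0143) and MEG3 of 4.43 (edgeR adjusted p = 0.0720). In that fit 5076 of 22934 rows were called higher. H19 averaged 1.80 ± 1.77 CPM in D libraries of the blastocyst group and 2.63 ± 0.238 CPM in those of the cleavage group, and 1.19 ± 1.31 against 6.78 ± 7.53 CPM in B libraries.

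The scaling moved all rows together. In granulosa cells the table's median log2 fold change stood at 0.10 under TMM. It was 0.47 when DESeq2 size factors were used and 0.70 when only totals were. Relative to that median MEG8 stood at 3.57, 3.76 and 3.72, MEG3 at 3.07, 3.09 and 3.06, and H19 at -1.75, -1.98 and -1.98 under these scalings. No member changed direction or call between them.

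In cumulus cells no fate difference was detected for H19 or MEG3, and MEG8 had too few counts for the test. H19 had 136, 103.8, 148 and 174 CPM in blastocyst libraries 9 to 12, against 68.1, 123, 155 and 90.9 CPM in cleavage libraries 5 to 8. The ranges overlapped over most of their length, and library 12 was highest and library 5 lowest. The means were 140 ± 29 CPM in the blastocyst group and 109 ± 38 CPM in the cleavage group (SD, n = 4 each), with a log2 fold change of 0.36 (SE 0.28, edgeR adjusted p = 0.577). In this comparison 0% of 15410 rows were called by edgeR, with 2249 at an unadjusted p under 0.05, and DESeq2 called 140.

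MEG3 varied widely among cumulus libraries of both fates. It had 31, 95, 90 and 6 counts in blastocyst libraries 9 to 12, against 64, 26, 78 and 92 counts in cleavage libraries 5 to 8. The low libraries were 12 in the blastocyst group and 6 in the cleavage group, and the groups overlapped. The means were 6.49 ± 5.25 CPM in the blastocyst group and 7.27 ± 3.21 CPM in the cleavage group (SD, n = 4 each), with a log2 fold change of -0.16 (SE 0.71, edgeR adjusted p = 0.936). Its sign turned without library 9 (0.07), 12 (0.20) or 8 (0.08), so no direction is given. MEG8 had 3, 9, 4 and 0 counts in blastocyst libraries 9 to 12, against 5, 2, 4 and 9 counts in cleavage libraries 5 to 8. Those counts lay under the filter on low counts, and MEG8 was not tested there.

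In ooplasm biopsies no member passed the test between the fates. MEG3 had 97, 3, 16 and 63 counts in blastocyst biopsies B20, B21, D24 and D27, against 22, 20, 1 and 0 counts in cleavage biopsies B14, B23, D10 and D29. Blastocyst biopsies B20 and D27 stood above all cleavage biopsies, whereas B21 and D24 lay within their range. The means were 2.30 ± 2.24 CPM in the blastocyst group and 0.536 ± 0.586 CPM in the cleavage group (SD, n = 4 each), with a log2 fold change of 2.09 (SE 1.43, edgeR adjusted p = 0.9999).

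MEG8 had 15, 8, 18 and 65 counts in blastocyst biopsies B20, B21, D24 and D27, against 36, 10, 0 and 4 counts in cleavage biopsies B14, B23, D10 and D29. Biopsy D27 was highest, and the groups overlapped. The means were 1.34 ± 1.23 CPM in the blastocyst group and 0.607 ± 0.754 CPM in the cleavage group (SD, n = 4 each), with a log2 fold change of 1.13 (SE 1.31, edgeR adjusted p = 0.9999). It was 2.42 without B14 and 0.27 without D27. Biopsies did not keep 1 order within the letters: B biopsies averaged 0.606 CPM of MEG8 in the blastocyst group and 1.11 CPM in the cleavage group, and those of MEG3 overlapped. In D biopsies MEG8 averaged 2.07 CPM in the blastocyst group and 0.105 CPM in the cleavage group, and blastocyst biopsies lay above cleavage biopsies for both RNAs (n = 2 each). H19 had 5, 0, 2 and 3 counts in blastocyst biopsies B20, B21, D24 and D27, against 0, 1, 0 and 0 in cleavage biopsies B14, B23, D10 and D29, and was under the filter. In this comparison 0% of 21174 rows were called by edgeR, with 1017 at an unadjusted p under 0.05, and DESeq2 called 172.

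Granulosa and biopsy libraries with 1 oocyte label come from the same follicle. Labels D10 and D29 of the cleavage group had the 2 lowest levels of the 8 for MEG3 and for MEG8, in granulosa cells and again in biopsies, on the scale common to all libraries. This was not so for H19. In biopsies the order rests on few reads. MEG3 had 1 and 0 counts in D10 and D29 against 3 in B21, a value at the floor of 3 counts. MEG8 had 0 and 4 counts in D10 and D29 against 8 in B21. In granulosa cells the order is in part the separation of the fates given above. The pattern was noticed in the values, and 1.13% of 28229 rows showed it in both cell types, or 2.22% of the 6711 rows within 1 log2 unit of the mean of MEG8. Biopsy D10 was also the fate biopsy with the fewest detected rows, 19993, while biopsy D29 had 23040. The part of depth or detection in this was not tested.

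In the matched set H19 was not detected, MEG3 had few counts, and MEG8 stood clear of the floor in biopsies 3 and 16 alone. H19 had no count in any of the 4 biopsies or the 4 whole oocytes, which allows up to 0.139 to 0.209 CPM in biopsies and 0.149 to 0.176 CPM in oocytes. MEG3 had 2, 0, 1 and 0 counts in biopsies 2, 3, 6 and 16, against 5, 2, 0 and 7 counts in the oocytes with the same numbers. MEG8 had 0, 29, 0 and 21 counts in biopsies 2, 3, 6 and 16, against 3, 1, 0 and 1 counts in the oocytes with the same numbers. Biopsies 3 and 16 thus held MEG8 reads where their oocytes had 1 each, and none for MEG3. All 3 rows were under the filter and were not tested here, where 0% of 18540 rows were called by edgeR, with 1028 at an unadjusted p under 0.05, and DESeq2 called 177.

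Whether the fate difference in granulosa cells differed from that in the other cell types was tested as an interaction. Against cumulus cells, the difference of log2 fold changes was 4.34 for MEG8 (SE 1.38, edgeR adjusted p = 0.0551), 3.59 for MEG3 (SE 1.45, edgeR adjusted p = 0.121) and -1.91 for H19 (SE 0.85, edgeR adjusted p = 0.156). None passed, where 10.2% of 21929 rows did, 9.91% with a positive and 0.319% with a negative difference. MEG8 passed with DESeq2 size factors (4.69), library totals (4.67) and the DESeq2 Wald test (4.72), and without B21, D24, B14 or B23 (4.56 to 4.93). MEG3 passed without B14 (5.84, edgeR adjusted p = 0.0242) and with the DESeq2 Wald test (3.87, adjusted p = 0.0442). That Wald test called 5101 of 26327 rows with a positive difference, and the edgeR fit without B14 called 1828 of 23744. The cumulus side of MEG8 rests on 16 reads in the blastocyst group and 20 in the cleavage group, under the filter in cumulus cells alone. Against biopsies, the difference was 2.37 for MEG8 (SE 1.57, edgeR adjusted p = 0.358), 0.84 for MEG3 (SE 1.96, edgeR adjusted p = 0.90) and -4.72 for H19 (SE 1.83, edgeR adjusted p = 0.111), where 6.90% of 28229 rows passed, 6.35% with a positive and 0.549% with a negative difference. H19 passed here with the DESeq2 Wald test (-4.90, adjusted p = 0.0353), which called 896 of 31529 rows with a negative difference. The biopsy side of H19 rests on 10 reads in the blastocyst group and 1 in the cleavage group, under the filter in biopsies alone. Without B14 the difference against biopsies was 3.13 for MEG3 and -3.62 for H19, and that against cumulus cells was -0.90 for H19. These 2 sets of values share the granulosa libraries. Fate differences particular to granulosa cells were thus not shown for any member by the edgeR fit of all libraries with TMM, and for MEG8 against cumulus cells the call depended on the scaling.

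Between cell types, H19 showed the largest fold changes of the 3 members. For these, all 32 libraries were fitted together, and cell type and library set cannot be told apart. Granulosa cells were taken before maturation in vitro and cumulus cells and biopsies after it, so maturation cannot be told apart from cell type. In bulk samples fewer cells of a type and less RNA per cell cannot be told apart either. Of 29999 rows, 62.2% differed between granulosa cells and biopsies (edgeR adjusted p under 0.05), with 28.7% higher and 33.6% lower in granulosa cells. Between granulosa and cumulus cells 51.7% differed, with 32.9% higher and 18.8% lower in granulosa cells. Between cumulus cells and biopsies 77.4% differed, with 28.6% higher and 48.8% lower in cumulus cells, and between whole oocytes and cumulus cells 69.7%, with 41.9% higher and 27.8% lower in oocytes. A call in these comparisons is thus common.

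H19 averaged 116 ± 33.1 CPM in cumulus cells, 2.35 ± 3.04 CPM in granulosa cells and 0.0755 ± 0.102 CPM in fate biopsies (SD, n = 8 each), and 0 in matched biopsies and oocytes. The lowest cumulus library had 62.9 CPM and the highest granulosa library 9.65 CPM, so cumulus cells did not overlap any other group. The share of all rows that separate in this way is not given here. Granulosa cells and biopsies overlapped in single libraries. The log2 fold change was 10.99 between cumulus cells and biopsies (SE 0.71, edgeR adjusted p = 1.91e-13), 5.11 between granulosa cells and biopsies (SE 0.65, edgeR adjusted p = 1.32e-07) and -5.88 between granulosa and cumulus cells (SE 0.53, edgeR adjusted p = 1.02e-09). The fold changes against biopsies rest on 10 reads in the blastocyst group and 1 in the cleavage group, and without biopsy B23, which held that 1 read, they were 11.69 for cumulus cells and 5.81 for granulosa cells. Whole oocytes, with no count, were at least 484-fold lower than cumulus cells, taking the mean of the floors of 3 counts per library, 0.239 CPM, as the oocyte level.

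MEG3 averaged 6.39 ± 3.76 CPM in cumulus cells, 2.87 ± 2.63 CPM in granulosa cells and 1.497 ± 1.89 CPM in fate biopsies (SD, n = 8 each), then 0.269 ± 0.241 CPM in whole oocytes and 0.0638 ± 0.0882 CPM in matched biopsies (SD, n = 4 each). The ranges of neighbours in this order overlapped throughout. MEG3 was higher in cumulus cells than in biopsies (log2 2.45, SE 0.86, edgeR adjusted p = 0.0112) and lower in whole oocytes than in cumulus cells (log2 -4.51, SE 1.31, edgeR adjusted p = 0.00297), at -5.10 without oocyte 16. Granulosa cells against cumulus cells gave -1.82 (SE 0.84, edgeR adjusted p = 0.0711), which passed without B14 at -2.98 (edgeR adjusted p = 0.00675). Against biopsies, granulosa cells gave 0.63 (SE 0.83, edgeR adjusted p = 0.531), a value that turned to -0.52 without B14.

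MEG8 had another order. It averaged 6.37 ± 7.86 CPM in granulosa cells, 1.04 ± 1.12 CPM in fate biopsies and 0.479 ± 0.350 CPM in cumulus cells (SD, n = 8 each), with 0.838 ± 0.971 CPM in matched biopsies and 0.0940 ± 0.0899 CPM in whole oocytes (SD, n = 4 each). By fate group, the 4 granulosa libraries of the blastocyst group, at 3.90 CPM or more, did not overlap the next group. That group, blastocyst biopsies, reached 3.47 CPM, and all later neighbours overlapped. The share of all rows with such a gap is not given here. MEG8 was higher in granulosa than in cumulus cells (log2 2.82, SE 0.90, edgeR adjusted p = 0.00883). Between granulosa cells and biopsies it gave 1.83 (SE 0.84, edgeR adjusted p = 0.0595), and it passed with the oocyte label as a block (1.99, edgeR adjusted p = 0.0220), with DESeq2 size factors (2.28), library totals (2.45) and the DESeq2 Wald test (2.29), and without granulosa D10 or D29 or biopsy D27 or B14 (1.99 to 2.47). Cumulus cells against biopsies gave -0.99 (edgeR adjusted p = 0.293), where the median of all rows was -1.34. Whole oocytes against cumulus cells gave -2.21 (SE 1.25, edgeR adjusted p = 0.116).

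**Figure D3:**
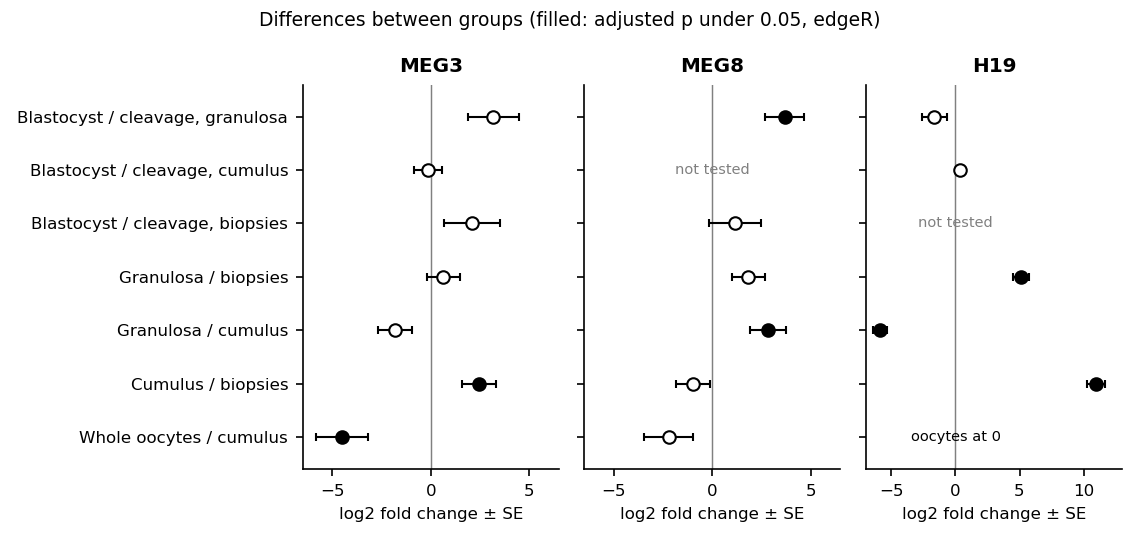
Log2 fold changes with SE for each member, the first-named group over the second, from edgeR fits over all rows, with filled points where the adjusted p was under 0.05. In H19 the points between cell types lie farthest from 0, at 10.99 for cumulus cells over biopsies, and no fold is drawn for whole oocytes, which had no count. Rows marked not tested were under the filter on low counts.

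The balance of MEG3 and MEG8, neighbours in the same domain, was compared between cell types after the values were seen, and is given as a description with no p. Of the counts of both rows, MEG3 made up 91.1% to 95.7% in the 7 cumulus libraries with at least 10 counts, and 18.2% to 51.9% in the 6 such granulosa libraries. The ranges lay apart, but the balance of other pairs of rows was not compared. Of all rows tested, 51.7% differed between granulosa and cumulus cells, so whether the gap is particular to this pair was not tested. The share draws on the same counts as the fold changes given above, -1.82 for MEG3 and 2.82 for MEG8, and is no separate result. Maturation and cell type cannot be told apart here either. The mean share was 92.9 ± 1.90% in cumulus cells and 34.98 ± 14.1% in granulosa cells (SD, n = 7 and 6), a difference of 57.9 percentage points. In single libraries the share was 91.3% in cumulus library 10, with a 95% interval of 84.2% to 95.97% (Clopper-Pearson), and 19.1% in granulosa library B20, with an interval of 16.03% to 22.4%.

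Biopsies lay between them and were more spread, at 27.3% to 86.6% in 6 libraries, with a mean of 52.5 ± 21.2%. On average cumulus cells stood 40.4 points above biopsies, with ranges apart, and biopsies 17.5 points above granulosa cells, with ranges that overlapped. The balance of other pairs of rows was not compared here either. Biopsy B20 had 86.6% (interval 78.9% to 92.3%), near the cumulus range, while granulosa cells of the same follicle had 19.1%. Matched biopsies 3 and 16 stood apart with 0 of 29 and 0 of 21 counts, which allow shares up to 11.9% and 16.1%. A share of counts depends on the lengths of both RNAs and is not a ratio of molecules, but these lengths are the same in all libraries unless isoforms differ, which was not tested.

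**Figure D4:**
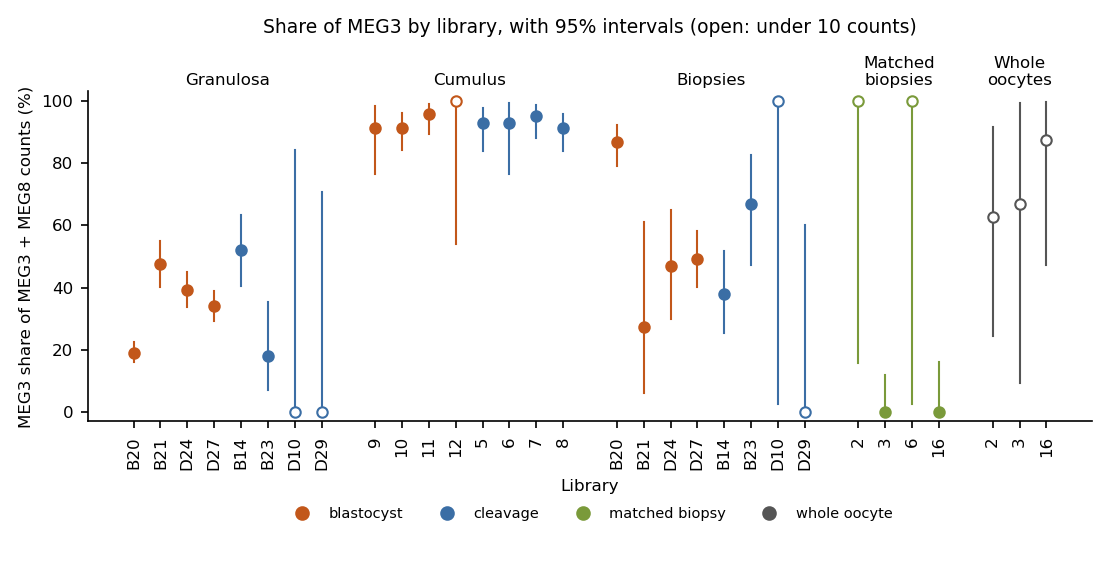
Share of MEG3 in the summed counts of MEG3 and MEG8 in percent, per library, with 95% Clopper-Pearson intervals, open points where both rows together had under 10 counts and no point where both were at 0. Cumulus libraries with 10 counts or more sit at 91.1% or above, and granulosa libraries with 10 counts or more at 51.9% or below.

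Other rows of the 2 imprinted neighbourhoods were looked up in the order of the RefSeq annotation of ARS-UCD2.0, a choice made after seeing values. Of 111 RefSeq genes from DLK1 to DIO3, 17 had a row, and DLK1, RTL1 and DIO3 were not among them. Most of these were microRNA or small nucleolar RNA rows with low counts, and 4 had enough counts for the test in granulosa cells, MEG3 and MEG8 among them. Of these 4, 2 were called higher, MEG8 being 1 of them, and 0 lower, beside 21.3% and 0.349% of all rows. Their median log2 fold change, members included, was 3.81, against 0.10 over all rows. All 4 had most of their counts in the blastocyst group and passed the filter mainly through it. A positive median was thus favoured in advance and is no test of the domain.

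Besides MEG8, the row called was LOC112443172, a long noncoding RNA locus that follows MEG9 in the RefSeq order. It had 97, 39, 24 and 65 counts in blastocyst libraries B20, B21, D24 and D27, against 2, 7, 0 and 0 in cleavage libraries B14, B23, D10 and D29 (log2 4.26, SE 1.26, edgeR adjusted p = 0.0350). In other cells it had 17 to 224 counts in fate biopsies and 58 to 222 in the matched set, and 0 in every cumulus library. The gene after it, LOC101907771, had 138, 10, 46 and 60 counts in blastocyst libraries B20, B21, D24 and D27, against 0, 12, 0 and 0 in cleavage libraries B14, B23, D10 and D29 (log2 3.96, SE 1.55, edgeR adjusted p = 0.0918). MEG9, a further maternally expressed RNA of the domain, had 7, 8, 7 and 31 counts in the blastocyst libraries, against 0, 5, 0 and 0 in the cleavage libraries, and was under the filter. In the cumulus and matched sets MEG9 had 2 counts or fewer per library. PEG11AS, the antisense transcript of RTL1, had 3 or 4 counts in each blastocyst granulosa library and 0 in each cleavage library. The counting strand is not given in the sources used here, so sense and antisense reads cannot be told apart in this domain.

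Around H19, 4 of 7 RefSeq genes from IGF2 to MRPL23 had a row, not IGF2 itself, and 3, H19 among them, were tested in granulosa cells. Of these 1 was called higher and 0 lower, beside 21.3% and 0.349% of all rows. LOC101902537, the long noncoding locus before H19 in the RefSeq order, had 13, 29, 67 and 83 counts in blastocyst libraries B20, B21, D24 and D27, against 0, 5, 0 and 0 in cleavage libraries B14, B23, D10 and D29 (log2 4.79, SE 1.40, edgeR adjusted p = 0.0338). It had no count in cumulus cells, where H19 was highest. LOC101902793 gave 3.21 (SE 1.11, edgeR adjusted p = 0.0624). Both neighbours thus had positive fold changes where that of H19 was negative. They too had most of their counts in the blastocyst group and passed the filter mainly through it.

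**Figure D5:**
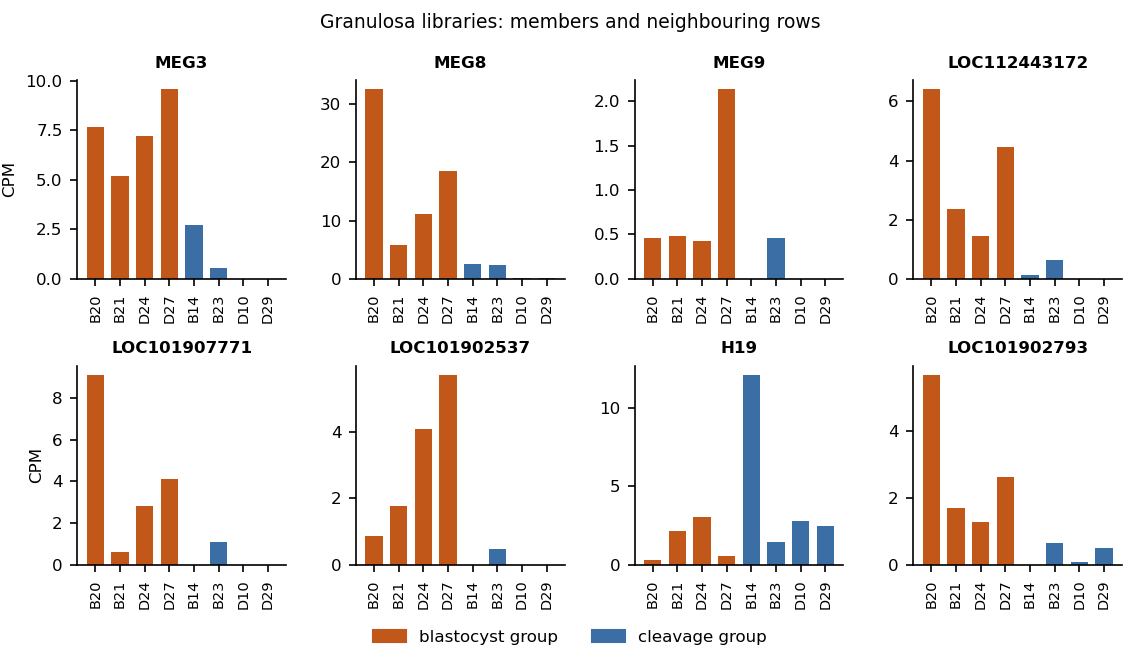
CPM in the 8 granulosa libraries for members and neighbouring rows, blastocyst group left of cleavage group, with bars starting at 0 and a separate vertical scale for each panel. Cleavage libraries D10 and D29 show no MEG3 and almost no MEG8, and H19 has its highest bar, 12.1 CPM, in cleavage library B14.

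Of a list of 55 imprinted genes 10 had a row, among them the 3 members, and 7 were tested in granulosa cells, with 1 called higher, MEG8, and 0 lower, beside 21.3% and 0.349% of all rows. SNURF, of the Prader-Willi domain, gave -1.25 (edgeR adjusted p = 0.0838), XIST, the RNA of X inactivation, -1.40 (edgeR adjusted p = 0.157), WARS, a tryptophanyl-tRNA synthetase, -0.81 (edgeR adjusted p = 0.254) and MKRN3, a ubiquitin ligase, 1.28 (edgeR adjusted p = 0.284). The list's median was -0.81, against 0.10 over all rows. In cumulus cells 0 of 5 tested rows of the list were called, in biopsies 0 of 5 and in the matched set 0 of 3, where 0% of all rows were called by edgeR, so these counts say nothing about the list. Among 34 other noncoding RNAs 5 had a row, TUG1, DANCR, SNHG3, XIST and RN18S1. None of these 5 was called in granulosa cells, where 0.349% of all rows were called lower, and their values ran from -1.40 for XIST to -0.94 for DANCR with TMM, with a median of -1.34. Of 40 regulators and partners of imprinting 1 had a row, the microRNA MIR134 of the MEG8 domain, and it was not tested for low counts.

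Across all 32 libraries, the rows with a symbol whose log2(CPM + 1) was most like a member were listed by Pearson's r, with no p, since the libraries share cell types, depth and library set. For H19 they were G0S2 (r = 0.988), a regulator of lipolysis, TLNRD1 (0.977) and MIR2882 (0.976). For MEG3 they were TNFRSF8 (0.854), FAM49A (0.814) and BDKRB1 (0.797), a bradykinin receptor. For MEG8 they were OFCC1 (0.906), EGFL6 (0.902) and COL9A1 (0.889), a collagen chain. Between members r was 0.615 for MEG3 and H19, 0.454 for MEG3 and MEG8 and -0.182 for MEG8 and H19. Within the 8 granulosa libraries r was 0.930 between MEG3 and MEG8, where 123 of 20903 rows were more like MEG3 than MEG8 was and 2702 were more like MEG8 than MEG3 was. There H19 gave -0.293 with MEG3 and -0.536 with MEG8.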

How the data were processed

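The 32 RNA libraries, 4 per group, came from bovine cumulus and granulosa cells, biopsied ooplasm and whole oocytes. STAR, featureCounts, cutadapt and Trim Galore are named per the submitters' processing notes. Versions, settings, strand and build: not given in the sources used here. RNA was amplified with a SMART-Seq HT kit, per the labels' protocols. The deposited values are whole-number read counts for each row, which the authors left unscaled. The tables mix symbols with 27607 Ensembl identifiers, and of 10274 other rows with at least 100 counts in all, 208 had counts within 1% of those of an Ensembl row. Polar body methylation was not used: 24 columns could not be tied to samples.

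Fits used edgeR 4.0.16 (R 4.3.3), each fate or matched comparison on the libraries it is about: filterByExpr, TMM, robust quasi-likelihood F tests and Benjamini-Hochberg adjustment over all rows tested, called under 0.05. Cell types were compared in 1 fit of all 32 libraries. DESeq2 1.42.0 (Wald test, every row with a count), other scalings, no filter and leaving out each library were alternatives. CPM are TMM-scaled, within each fate or matched comparison for fate values and over all 32 libraries for cell types. Shares of counts are described with Clopper-Pearson intervals at 95% (Python 3.11.15, SciPy 1.17.1). Exact permutation tests of the shares, made after the values were seen, enter only the tally of alternative values and are not given as results. Where a member had no count, 3 counts in that library were taken as its upper limit. Intervals and floors cover counting error only. RefSeq genes of ARS-UCD2.0 gave names and order only. The fits were also run on simulated data with few rows changed, up and down alike. Calls in granulosa cells were mostly upward, so that run is no check on them.

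The members, lists and neighbourhoods were chosen with earlier results of these data known. Named rows are the members, rows of the listed genes, neighbouring rows, and the 3 rows with a symbol most like each member among rows of at least 1 CPM on average. Granulosa and biopsy libraries pair by oocyte label, as the series text ties both to 1 follicle. Deviations of same-label pairs correlated at -0.023 to 0.118 (mean 0.051), and of different-label pairs at -0.172 to 0.153, so this pairing comes from the labels. For the matched set, same-number values were 0.183 to 0.297 and different-number values -0.326 to 0.219, so the ranges overlapped. The numbers were taken as pairs where counts are listed. The main fit of this set had no block, and the numbers entered as a block only in an alternative. Pairs of libraries of a group differed by more than counting noise (chi-square per degree of freedom 5.03 or more). Separate animals are not stated, and a p-value here measures the spread between samples, which may be technical.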

Additional observations from a re-analysis of the deposited data

Results flagged for a closer look

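H19 in granulosa library B14 of the cleavage group stood at 12.1 CPM, apart from the other cleavage libraries at 1.46 to 2.80 CPM. The gap was 0.874 of the group's range, past Dixon's 95% limit for 4 values. The same library had the highest MEG3 of the cleavage group, 2.70 CPM, and the highest MEG8, 2.50 CPM, close to B23. In biopsies of the cleavage group H19 stood at 0.0526 CPM in B23 and at 0 in the other 3 libraries, which is 1 read. With 3 libraries at 0 the gap fills the range whatever the 4th value, so this mark is no finding. In all, 22 groups of 4 member levels were looked at, and MEG3 shares where 4 libraries had enough counts. Chance marks about 1 in 20 groups of normal values, a rate that does not hold for groups mostly at 0.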

How the results depend on the processing

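Of 596 alternative values, 538 kept their direction and side of the threshold, or stayed within 1.5 times for a count. The tally includes differences of the MEG3 share, judged by the adjusted p of exact permutation tests made after the values were seen. Counts of rows called: in granulosa cells the 4964 rows became 11431 with the DESeq2 Wald test, 0 without B20 and D27, and 2482 to 8131 with 1 library left out (2482 without D27, 3162 without B20, 8131 without B23). In cumulus cells 0 became 183 without the filter, 140 with DESeq2 and 0 to 7 with 1 library left out (7 without 12, 3 without 7). In biopsies 0 became 27 without the filter and 172 with DESeq2, and in the matched set 13 and 177. The granulosa minus biopsy interaction had 1948, with 3783 under library totals, 1237 without the filter, 5597 with DESeq2 and 443 to 4955 with 1 library left out (443 without B20, 566 without D27, 697 without B14, 636 without D29, 4955 without B23). The granulosa minus cumulus interaction had 2244, with 5560 by DESeq2 and 1212 to 5156 with 1 library left out (1212 without D27, 1446 without D10, 4737 without B21, 5156 without D24, 4194 without B23). Fewer rows or samples enter some of these fits, and otherwise the cause was not tested.

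Log2 fold changes that crossed the threshold: MEG8 by fate in granulosa cells was 2.74 without B20 and D27 and 3.21 to 4.10 with 1 library left out, and MEG3 3.58 with DESeq2 and 2.69 to 5.30. MEG3 by fate in cumulus cells ran from -0.57 to 0.20 with 1 library left out, turning to 0.07, 0.20 and 0.08. In the interaction with biopsies H19 was -4.90 with DESeq2. In that with cumulus cells MEG3 was 3.87 with DESeq2 and 3.08 to 5.84 with 1 library left out, and MEG8 4.69 with size factors, 4.67 with totals, 4.72 with DESeq2 and 3.58 to 4.93. Granulosa cells against biopsies gave MEG3 -0.52 to 0.98 and MEG8 1.52 to 2.47 with 1 library left out, and MEG8 2.28, 2.45 and 2.29 with size factors, totals and DESeq2. Granulosa against cumulus cells gave MEG3 -2.98 to -1.47. Whole oocytes against cumulus cells gave MEG8 -2.81 with library totals (edgeR adjusted p = 0.0498). The cause was not tested.

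With the replicate block, the oocyte label shared by granulosa and biopsy libraries, MEG8 between these cell types was 1.99 (edgeR adjusted p = 0.0220) and the interaction called 1401 rows. In the matched set the block on shared numbers called 0 rows (1262 at an unadjusted p under 0.05, edgeR, and 177 by DESeq2 without it). The block changed no other call of a member. No paired analysis was possible for cumulus cells because the columns do not carry the numbers of the labels.

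In the blastocyst group alone the MEG3 share was 57.8 points higher in cumulus than in granulosa cells and 40.2 points higher than in biopsies. With 1 library left out the differences were 54.5 to 61.3 and 35.4 to 47.2 points. Depth limits each member where its counts are few. Where a member had none, 3 counts are 0.139 to 0.382 CPM. H19 in biopsies and whole oocytes and MEG3 in the matched set lie at or near that limit. So does MEG8 in the matched set, except in biopsies 3 and 16.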
